A study of Mus musculus with 12 samples.

Results

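The genes of neurotransmitter receptors were chosen by their symbols from the table of normalized read counts of mouse myelin. The choice took in the subunits of the AMPA (4 genes), kainate (5), NMDA (7) and delta (2) glutamate receptors, the metabotropic glutamate receptors (8), the GABA-A (19), GABA-B (2) and glycine (5) receptors, the nicotinic (13) and muscarinic (5) acetylcholine receptors, and the serotonin (14) and dopamine (5) receptors. This gave 89 of the 21937 genes of the table. Nicotinic subunits whose symbol ends in a letter, and receptors for other transmitters, were outside this choice. A mean of at least 10 normalized reads over all libraries was reached by 73 of the 89 genes, and these entered the main tests. The other 16 entered only a fit without this filter and are given by their values at the end.

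The RNA came from brains of male c57Bl6/N mice, from which myelin was purified on sucrose density gradients as the membranes of low density. Wild-type mice were sampled at postnatal day 18 (P18), postnatal day 75 (P75), 6 months and 24 months, with 3 libraries at each of these ages and 12 in all. The 3 libraries of 6 months came from 3 individual brains, and the labels number the libraries of the other ages as replicates without naming an animal, so the p-values measure the spread between libraries. Each library held 20299052 to 27214385 reads on genes, and a normalized read count is the number of reads on a gene divided by the size factor of its library, so that 1 read was worth 0.812 to 1.19. These values are not divided by gene length, and levels of different genes are therefore compared only per kilobase of merged exon.

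Neurotransmitter receptors receive the chemical signals that neurons release. Ionotropic receptors are channels built from several subunits, which open for cations (AMPA, kainate, NMDA, nicotinic and type 3 serotonin receptors) or for chloride (GABA-A and glycine receptors), whereas metabotropic receptors act through G proteins. Many subunits are exchanged as the brain matures, and neurons are the main site of their expression, although astrocytes, oligodendrocytes and their precursors also carry receptors for glutamate, GABA and acetylcholine. Myelin itself is the stack of membrane that oligodendrocytes wrap around axons.

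Receptor transcripts were a small share of the myelin RNA, and the mean of this share was higher at each later age. Together the 89 genes took 0.215% ± 0.0367 (SD, n = 3) of all reads on genes at P18, 0.369% ± 0.0137 at P75, 0.530% ± 0.0733 at 6 months, then 0.593% ± 0.0486 at 24 months. Their summed normalized read count was 48698, 50747 and 57934 at P18, 81157, 81789 and 86089 at P75, 130520, 109964 and 118381 at 6 months, and 128330, 142079 and 143317 at 24 months. The 3 libraries of P18 lay below those of P75, and those of P75 below those of 6 months, while 6 and 24 months overlapped. In exact two-sided permutation tests the sum gave p = 0.1 from P18 to P75, p = 0.1 from P75 to 6 months and p = 0.2 from 6 to 24 months, where 0.1 is the smallest p that 3 against 3 libraries allow. The summed level of 16 neuronal marker genes was 249345 ± 22218, 263099 ± 18768, 247328 ± 4708 and 237486 ± 8805 at the 4 ages (exact permutation p = 0.5, 0.2 and 0.3 for the consecutive steps). The receptor sum was 21% ± 0.744 of the neuronal marker sum at P18, 31.7% ± 2.51 at P75, 48.3% ± 3.57 at 6 months, then 58.0% ± 1.99 at 24 months. The marker sum is weighted by its most abundant genes. The geometric mean of the same markers had a median of 9094, 8255, 10288 and 9409 at the 4 ages. It was thus higher at 6 months than at P75, where the mean sum was lower.

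**Figure D1:**
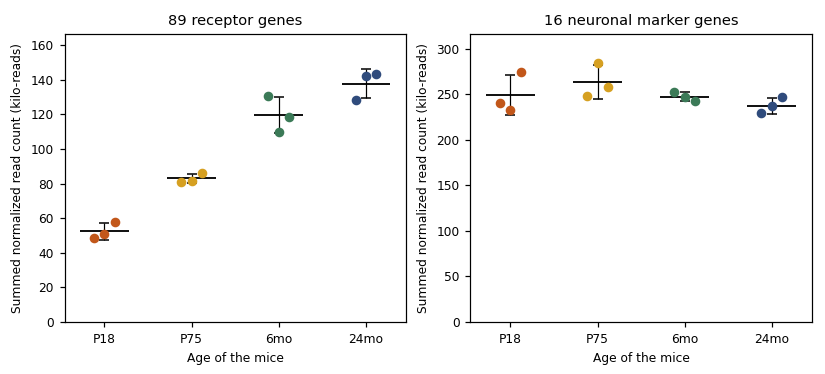
Summed normalized read count (axes in kilo-reads) of the 89 receptor genes (left) and of 16 neuronal marker genes (right) against age. Points are libraries, lines the mean and bars the SD of 3 libraries. The mean receptor sum was higher at each later age, and the neuronal marker sum lay between 229048 and 284059 in all 12 libraries.

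The fraction holds RNA of several cell types, and in such bulk samples fewer cells of a type and less RNA per cell cannot be told apart. No marker gene of the 12 cell type lists was at 0 in every library of an age. The 10 markers of mature oligodendrocytes had a median summed level of 4206820 at P18, 1317390 at P75, 1419690 at 6 months, then 1735560 at 24 months, and 7 of the 10 fell from P18 to P75. Of the 16 neuronal markers tested, 3 rose and 8 fell from P18 to P75, 8 rose and 4 fell from P75 to 6 months, and 0 rose and 3 fell from 6 to 24 months. Among them Syt1, which encodes the calcium sensor of synaptic vesicles, rose from a mean of 3851 at P75 to 19472 at 6 months. Markers of striatal neurons had a summed level of 11322 to 17161 at P18, 16432 to 19100 at P75, 21124 to 22959 at 6 months, then 23632 to 25968 at 24 months, and 3, 4 and 1 of 8 rose in the consecutive steps, against 1, 0 and 1 that fell. In the choroid plexus list, 4, 5 and 1 of 6 rose and 1, 0 and 0 fell. Microglial markers rose in 5, 5 and 3 of 8 cases and fell in 0, 1 and 0. Of the brainstem and spinal list, 7 of 8 genes were tested, and 1, 3 and 1 rose and 1, 4 and 0 fell. From P75 to 6 months its log2 changes ranged from -3.46 to 2.29, with Hoxb5, Hoxb8 and Hoxc4 among the genes that fell. Its summed level had a median of 2385, 3009, 3764 and 4895 at the 4 ages, and its geometric mean one of 81.1, 65.0, 56.4 and 72.2. For cortical and hippocampal excitatory neurons 0, 3 and 0 of 8 rose and 3, 3 and 2 fell, for cerebellar granule neurons 2, 1 and 1 of 8 rose and 4, 2 and 1 fell, and for Purkinje cells 1, 3 and 2 of 5 rose and 1, 1 and 0 fell. Astrocyte markers rose in 3, 3 and 2 of 10 cases and fell in 2, 1 and 0, oligodendrocyte precursor markers rose in 1, 6 and 0 of 8 and fell in 2, 0 and 1, and endothelial markers rose in 1, 2 and 0 of 6 and fell in 0, 1 and 0. Mature oligodendrocyte markers rose in 0, 2 and 0 cases and fell in 7, 0 and 2. Of all genes tested, 25.9%, 31.2% and 16.6% rose and 22.9%, 29.4% and 12.7% fell in the consecutive steps. The part of these cell types in the receptor results was not tested.

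Per kilobase, Glrb, the beta subunit that anchors glycine receptors, had the highest mean over all libraries, with 2473 normalized reads per kilobase. High levels were also found for Gabbr1 (1382), which binds GABA in the GABA-B receptor, and for the AMPA receptor subunits Gria2 (1147) and Gria1 (989). At P18 the libraries of Glrb lay above those of every other receptor gene per kilobase and those of Gabbr1 above those of Gria1, whereas Gria1 and Gria2 overlapped there. GABA-A subunits made up 38.4% ± 1.23, 37.1% ± 1.30, 38.8% ± 0.699 and 39.6% ± 0.172 (SD, n = 3) of the summed level per kilobase of all receptor genes at the 4 ages, and AMPA subunits 15.7% ± 1.04, 17.2% ± 0.718, 16.4% ± 0.239 and 16.7% ± 0.487. Kainate subunits had 6.52% ± 0.627 at P18 and 3.47% ± 0.178 at 24 months. The median receptor gene was much lower, with 41.3 normalized reads per kilobase over the 89 genes. Lengths were taken from the GENCODE annotation of NCBIM37 (mm9), and a gene with an unlisted exon is overstated per kilobase, as may hold for Chrm3, which has 1 merged exon there.

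**Figure D2:**
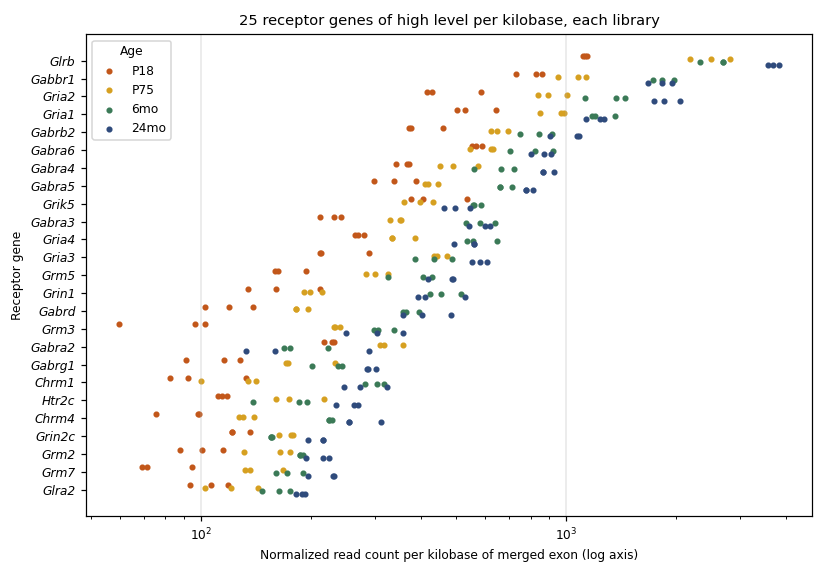
Normalized read count per kilobase of merged exon (log axis) in each library for 25 receptor genes of high mean, ordered from the top. Each point is 1 library, coloured by age, and Glrb, Gabbr1, Gria2 and Gria1 stand at the top of those shown.

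Most receptor genes rose from P18 to P75, and most rose from P75 to 6 months, but the genes were only partly the same. Glrb and Gria3, for example, were called in the first of these steps only, and Chrm1 in the second only. The last step moved fewer receptor genes and moved them both ways, as it did for all genes. In limma fits over all genes, with Benjamini-Hochberg adjusted p under 0.1, 48 of 73 receptor genes were called from P18 to P75, of which 44 rose and 4 fell. Those calls were 65.8% of the receptor genes, with 60.3% rising and 5.48% falling. Of all 14634 genes tested, 48.8% were called in this step, 25.9% rising and 22.9% falling. From P75 to 6 months 56 receptor genes (76.7%) were called, 53 (72.6%) rising and 3 (4.11%) falling. Of all genes 60.6% were called, 31.2% rising and 29.4% falling. From 6 to 24 months 27 (37.0%) were called, 18 (24.7%) rising and 9 (12.3%) falling. Of all genes 29.3% were called, 16.6% rising and 12.7% falling, so the falling share of the receptor genes was close to that of all genes. The median log2 change of the receptor genes was 0.51, 0.52 and 0.11 in the 3 steps, beside 0.02, 0.01 and 0.03 over all genes tested. P75 libraries enter the first and the second step, and 6-month libraries the second and the third, so the values of consecutive steps are not independent. For each gene the values below are normalized read counts of replicates 1, 2 and 3, and those in parentheses are the log2 change, later minus earlier age, ± its standard error with the Benjamini-Hochberg adjusted p of limma. Among the 73 genes the highest mean lay at P18 for 0, at P75 for 6, at 6 months for 26 and at 24 months for 41.

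The split between rises and falls depended on the scaling in the later steps. When libraries were scaled to the geometric mean of the neuronal markers, 34 receptor genes rose and 9 fell from P75 to 6 months, and 26 rose and 6 fell from 6 to 24 months. That scaling moved the median of all genes by 0.15, -0.29 and 0.12 in the 3 steps, and a scaling of all libraries to the same total moved it by 0.12 from P18 to P75. From 6 to 24 months, 8 rose and 9 fell with the same total, and 14 rose and 11 fell with quantile normalization. Single libraries also decided counts of the last step. Without 24-month replicate 2 it held 14 calls, 8 rising and 6 falling. There were 10 rising without 6-month replicate 2, 11 without 6-month replicate 3 and 9 without 24-month replicate 3, and 5 falling without 6-month replicate 1. Calls that held without each of the 12 libraries in turn were 40 of 48, 47 of 56 and 13 of 27 in the 3 steps.

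**Figure D3:**
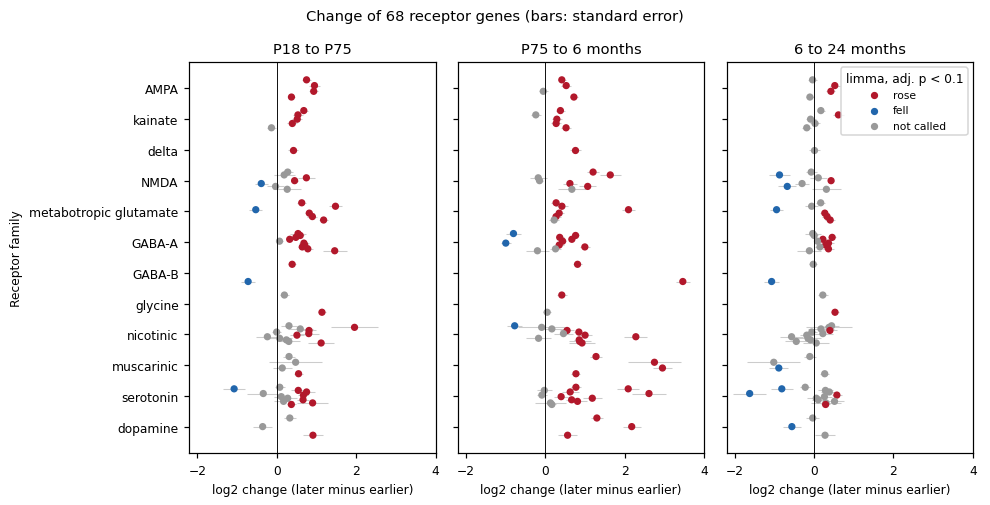
The log2 change (later minus earlier age) of 68 tested receptor genes, by family, in the 3 consecutive steps, with bars of 1 standard error. Red points rose and blue points fell in the limma fit with adjusted p under 0.1, and grey points were not called. Of the points, 40, 48 and 16 are red in the 3 panels.

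AMPA receptors carry most fast excitatory transmission, and their 4 subunit genes all rose from P18 to P75, 3 rose from P75 to 6 months and 2 rose from 6 to 24 months. Gria2, the subunit that keeps most AMPA receptors from passing calcium, lies on chromosome 3, 80488858 to 80606713 (mm9, minus strand). It had 2897, 2985 and 4062 at P18, 6202, 5843 and 7004 at P75, 10067, 7863 and 9533 at 6 months, and 12147, 14302 and 12877 at 24 months. No library of an age overlapped with those of the next age. Its log2 change was 0.95 ± 0.13, adjusted p = 3.92e-05 from P18 to P75, 0.52 ± 0.13, adjusted p = 0.00309 from P75 to 6 months and 0.52 ± 0.13, adjusted p = 0.0125 from 6 to 24 months. Gria1, a subunit of receptors added to synapses in plasticity, had 3202, 3041 and 3876 at P18, 5871, 5975 and 5129 at P75, 8239.7, 7243 and 7128 at 6 months, and 6842, 7491 and 7684 at 24 months. It rose in the first 2 steps (0.75 ± 0.10, adjusted p = 4.38e-05, then 0.41 ± 0.10, adjusted p = 0.00338), and its libraries of 6 and 24 months overlapped (-0.04 ± 0.10, adjusted p = 0.841). Scaling to the neuronal markers ended the calls of Gria1 and Gria2 from P75 to 6 months, where their log2 changes were then 0.13 and 0.24, and under it Gria3 was called falling by 0.34. The ratio of Gria2 to Gria1, each per kilobase, was 0.850 ± 0.0623 (SD, n = 3) at P18, 0.985 ± 0.178 at P75, 1.06 ± 0.109 at 6 months, then 1.55 ± 0.102 at 24 months. Its 24-month libraries, at 1.54, 1.66 and 1.46, lay above all others. Gria3 had 2103, 2095 and 2848 at P18, 4377, 4283 and 4645 at P75, 4801, 3797 and 4278 at 6 months, and 5453, 6010.5 and 5748 at 24 months, and Gria4 had 1658, 1693 and 1758 at P18, 2425, 2100.0 and 2095 at P75, 4061, 3352 and 3489.6 at 6 months, and 3097, 3511 and 3518 at 24 months. Gria3 rose from P18 to P75 (0.93 ± 0.11, adjusted p = 1.56e-05) and from 6 to 24 months (0.42 ± 0.11, adjusted p = 0.0186), whereas Gria4 rose from P18 to P75 (0.37 ± 0.09, adjusted p = 0.00441) and from P75 to 6 months (0.72 ± 0.09, adjusted p = 1.12e-05). The spans of Gria2, Gria3 and Gria4 each hold another annotated gene on the same strand, whose reads could not be separated here.

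Gria2 and Glrb are neighbours on chromosome 3 within 229 kilobases, and they are the receptor genes with the largest value at 24 months per kilobase in the glutamate and the glycine families. The 250 bases before their start sites are shown because both genes were measured at high levels and both hold a match to the right part of the RE1 element, GGACAGC, which is bound by the repressor REST in cells outside the nervous system. Matches are in capitals, read on either strand, together with the GC box GGGCGG, of which Gria2 has none and Glrb has 1. The sequences are from RefSeq (GRCm38.p6), on the minus strand at chr3:80802836-80803085 and chr3:80913661-80913910.
Gria2: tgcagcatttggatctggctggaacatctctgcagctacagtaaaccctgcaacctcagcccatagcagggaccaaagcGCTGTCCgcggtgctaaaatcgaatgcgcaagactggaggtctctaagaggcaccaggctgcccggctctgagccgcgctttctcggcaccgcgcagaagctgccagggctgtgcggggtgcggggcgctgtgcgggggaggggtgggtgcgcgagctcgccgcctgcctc
Glrb: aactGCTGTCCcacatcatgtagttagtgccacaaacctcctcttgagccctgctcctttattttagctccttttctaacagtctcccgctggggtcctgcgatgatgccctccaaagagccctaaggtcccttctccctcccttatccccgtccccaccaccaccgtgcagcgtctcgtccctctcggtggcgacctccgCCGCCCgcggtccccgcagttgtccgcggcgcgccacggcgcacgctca
The match in both is the reverse complement of GGACAGC. The letters GGACAGC were found in 9.09% of 77 promoters of 66 receptor genes and in 5.28% of all 32851 promoters of the same length. The left part, TCAGCACC, was found in 2.60% and 1.32%. GGGCGG was in 37 of the 77 (48.1%) and in 32.7% of all, and TATAAA in 7.79% and 12.4%. No match among these overlaps another in the sequences shown. Only exact copies of these letters were searched, so a left part with other letters would be missed. A match to so few letters is a description of the sequence, and whether it is a binding site was not tested.

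Kainate receptors modulate transmitter release and excitability. Of their 5 genes, 4 rose from P18 to P75, 4 rose from P75 to 6 months and 1 rose from 6 to 24 months. From P75 to 6 months the count was 2 rising with the same total, 3 rising and 1 falling with quantile normalization, and 1 rising and 1 falling with neuronal marker scaling. Grik2, which forms the pore of many kainate receptors, had 529, 517 and 735 at P18, 867, 775 and 909.8 at P75, 753, 633 and 776 at 6 months, and 978, 1155 and 1176 at 24 months. It rose from P18 to P75 (0.53 ± 0.13, adjusted p = 0.00353) and had the largest rise of the receptor genes from 6 to 24 months (0.61 ± 0.13, adjusted p = 0.00539), and its 24-month libraries lay above all others. Its change from P75 to 6 months was -0.24 ± 0.13, adjusted p = 0.125, and a fit blocked by replicate number gave adjusted p = 0.0759. That call was also gained without P18 replicate 3 (adjusted p = 0.0419) and without P75 replicate 2 (0.0946). The other 4 genes ranged from 132 (Grik1) to 2249 (Grik5) normalized reads in single libraries. Grik5 was the highest of the family per kilobase, with 476 against 98.7 for Grik2.

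The delta receptors bind no glutamate and organise synapses through cerebellins. Grid1, which is expressed widely in the forebrain, had 209, 247 and 335 at P18, 339.7, 359.7 and 332 at P75, 616, 566 and 562 at 6 months, and 608, 560.1 and 585 at 24 months, and it rose in the first 2 steps (0.41 ± 0.13, adjusted p = 0.0201, then 0.76 ± 0.13, adjusted p = 0.000163). The first of these calls was lost without P18 replicate 1 (adjusted p = 0.118).

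**Figure D4:**
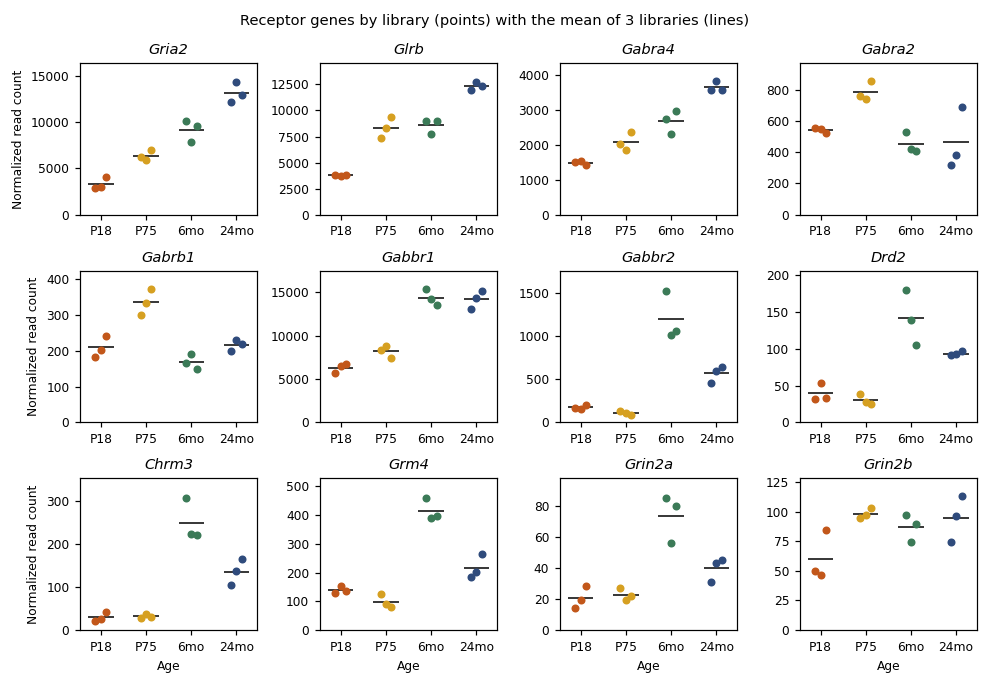
Normalized read count against age for 12 receptor genes. Points are libraries and lines the mean of 3 libraries. Gria2, Glrb and Gabra4 were higher at 24 months than at P18 in every library, Gabbr2, Drd2, Chrm3, Grm4 and Grin2a had their highest mean at 6 months, and Gabra2 and Gabrb1 had theirs at P75.

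NMDA receptors need glutamate and a co-agonist and consist of the obligatory subunit Grin1 with Grin2 or Grin3 subunits. Of their 7 genes, 2 rose and 1 fell from P18 to P75, 4 rose from P75 to 6 months, and 1 rose and 2 fell from 6 to 24 months. Per kilobase Grin1 had 319.9, Grin2c 166, Grin2d 16.4, Grin2b 10.4 and Grin2a 7.40. The order thus put Grin2c, which in the brain is known from cerebellar granule cells and astrocytes, far above Grin2a and Grin2b, the subunits of most forebrain receptors. Grin1 had 1308, 1558 and 2058 at P18, 1931, 2081 and 1855 at P75, 4998, 4412 and 4106 at 6 months, and 3814, 3995 and 5125 at 24 months. From P75 to 6 months it rose (1.2 ± 0.14, adjusted p = 5.06e-06), and these ages did not overlap. Grin2c had 612, 611 and 687 at P18, 899, 887 and 822 at P75, 789, 782 and 782 at 6 months, and 1089, 993 and 1091 at 24 months. It rose from P18 to P75 (0.45 ± 0.08, adjusted p = 0.000401) and from 6 to 24 months (0.43 ± 0.08, adjusted p = 0.00307), without overlap in either step.

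Grin2b, the subunit of young synapses, had 49.9, 46.3 and 84.4 at P18, 94.2, 97.3 and 103 at P75, 96.7, 74.6 and 89.5 at 6 months, and 74.3, 96.2 and 113 at 24 months. Grin2a, which joins NMDA receptors as synapses mature, had 14.3, 19.2 and 28.1 at P18, 27.1, 19.5 and 22.1 at P75, 85.3, 55.9 and 79.8 at 6 months, and 30.7, 43.2 and 45.4 at 24 months. The counts of both are low, with 12 to 105 reads behind a value of Grin2a. Grin2b rose from P18 to P75 (0.75 ± 0.21, adjusted p = 0.00939), and Grin2a rose from P75 to 6 months (1.63 ± 0.26, adjusted p = 8.06e-05) and fell from 6 to 24 months (-0.87 ± 0.26, adjusted p = 0.0295). The last call was lost without 6-month replicate 1 or 24-month replicate 1 (adjusted p up to 0.123). Their ratio per kilobase, Grin2a to Grin2b, was 0.532 ± 0.101 (SD, n = 3) at P18, 0.361 ± 0.0720 at P75, 1.30 ± 0.122 at 6 months, then 0.650 ± 0.0384 at 24 months, and its 6-month libraries lay above all others. The exact permutation p of this ratio was 0.1, the smallest possible, in both of the later steps. Grin2d, a subunit of interneurons and brainstem, had 84.4, 106 and 106 at P18, 80.2, 86.2 and 60.8 at P75, 126, 105 and 117 at 6 months, and 78.3, 102 and 103 at 24 months. It fell from P18 to P75 (-0.39 ± 0.17, adjusted p = 0.0745) and rose from P75 to 6 months (0.62 ± 0.17, adjusted p = 0.00557). The fall was lost without P18 replicate 2, P18 replicate 3 or P75 replicate 3 (adjusted p up to 0.299) and under DESeq2 and scaling to the same total (adjusted p = 0.109 and 0.281). Grin3a, which lowers the calcium flow of the receptor, had 24.9, 24.9 and 20.1 at P18, 19.0, 21.3 and 28.7 at P75, 57.7, 40.8 and 48.7 at 6 months, and 33.7, 28.1 and 28.7 at 24 months. It rose from P75 to 6 months (1.07 ± 0.22, adjusted p = 0.000772) and fell from 6 to 24 months (-0.67 ± 0.22, adjusted p = 0.0426), a call lost without 6-month replicate 1 or 24-month replicate 2 (adjusted p up to 0.170). Ppp3r2 lies in its span on the same strand.

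The metabotropic glutamate receptors act through G proteins, some coupled to phospholipase C and the others to inhibition of adenylate cyclase. Of the 7 tested, 6 rose and 1 fell from P18 to P75, 6 rose from P75 to 6 months, and 4 rose and 1 fell from 6 to 24 months. The second count was 3 with the same total and 1 with neuronal marker scaling, and the third was 0 rising with the same total. Grm3, which is strong in astrocytes, had 368, 345 and 214 at P18, 833, 829 and 859 at P75, 1209.7, 1094 and 1065 at 6 months, and 893, 1089.9 and 1278 at 24 months. It had the largest rise of the glutamate receptor genes from P18 to P75 (1.48 ± 0.16, adjusted p = 5.45e-06), and these ages did not overlap. The rise from P75 to 6 months was smaller (0.42 ± 0.16, adjusted p = 0.0406), a call lost without 6-month replicate 1 (adjusted p = 0.130) and with neuronal marker scaling. The 10 astrocyte markers had a summed level of 101297 to 122334 at P18 and 109940 to 117425 at P75. Grm8, a presynaptic receptor, had 169.9, 137 and 167 at P18, 348, 352 and 373 at P75, 474, 368 and 415 at 6 months, and 487, 598 and 579 at 24 months. The first step was a rise without overlap (1.18 ± 0.12, adjusted p = 2.77e-06). Its rise from 6 to 24 months (0.41 ± 0.12, adjusted p = 0.027) was lost with scaling to the same total, and without 6-month replicate 2 or 24-month replicate 2 (adjusted p up to 0.122).

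Grm4 stood apart from the rest of the family. This presynaptic receptor, best known from cerebellar parallel fibres, lies on chromosome 17, 27559332 to 27650286 (mm9, minus strand) and had 129.5, 153 and 137 at P18, 126, 89.9 and 78.5 at P75, 461, 389 and 396 at 6 months, and 183, 203 and 266 at 24 months. Its 6-month libraries lay above all others, and those of 24 months above those of the younger ages. It fell from P18 to P75 (-0.53 ± 0.17, adjusted p = 0.0193), rose from P75 to 6 months (2.09 ± 0.17, adjusted p = 1.75e-07) and fell from 6 to 24 months (-0.94 ± 0.17, adjusted p = 0.00217). The first fall was lost without P75 replicate 3 (adjusted p = 0.102).

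GABA-A receptors are chloride channels of 5 subunits, usually 2 alpha, 2 beta and 1 gamma or delta. Of the 19 genes 13 were tested, and 12 of them rose from P18 to P75, 9 rose and 2 fell from P75 to 6 months, and 6 rose from 6 to 24 months. Scaling to the neuronal markers left 5 rising in the second step and 9 in the third, and scaling to the same total left 2 in the third. Many of these genes lie in clusters of the genome. On chromosome 5 (mm9, 71142286 to 72529628) Gabrg1, Gabra2, Gabra4 and Gabrb1 lie within 1387 kilobases.

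Gabra6, a subunit of cerebellar granule cells, had 1468, 1416 and 1380.1 at P18, 1554, 1361 and 1569.8 at P75, 2287, 1752 and 2044 at 6 months, and 2000.1, 2173 and 2259 at 24 months. A rise was called from P75 to 6 months (0.43 ± 0.10, adjusted p = 0.0014), a call that neuronal marker scaling ended. The 8 cerebellar granule neuron markers had a summed level of 15678 to 17612 at P18, 13974 to 14981 at P75, 12788 to 13782 at 6 months, then 12406 to 12608 at 24 months. Their part in the result was not tested.

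The cluster of chromosome 5 held genes that moved apart. Gabra2, an alpha subunit prominent in the young forebrain and in axon initial segments, had 554, 546 and 521 at P18, 762, 739 and 856 at P75, 532, 419 and 405 at 6 months, and 318, 383 and 691 at 24 months. It rose from P18 to P75 (0.54 ± 0.20, adjusted p = 0.0384) and fell from P75 to 6 months (-0.80 ± 0.20, adjusted p = 0.00271), where every 6-month library lay below every P75 library. Without P75 replicate 3 the rise was lost (adjusted p = 0.120). At 24 months replicate 3 stood apart, and the step from 6 to 24 months was not called (-0.03 ± 0.20, adjusted p = 0.927). Without that library the log2 change was -0.36 and Gabra2 was called falling (adjusted p = 0.0672). Gabrb1, a beta subunit of the same cluster, had 183, 202 and 242 at P18, 301, 333 and 374 at P75, 165, 191 and 148 at 6 months, and 199, 230.3 and 218 at 24 months. It rose from P18 to P75 (0.68 ± 0.13, adjusted p = 0.000696), fell from P75 to 6 months (-1.0 ± 0.13, adjusted p = 1.46e-05) and rose from 6 to 24 months (0.36 ± 0.13, adjusted p = 0.0621). The last call was lost without 6-month replicate 1 or 3 or 24-month replicate 2 or 3 (adjusted p up to 0.196), and with the same total or quantile normalization. Gabra4, a subunit of extrasynaptic and striatal receptors from the same cluster, had 1512, 1531 and 1417 at P18, 2026, 1862 and 2367 at P75, 2747, 2310.5 and 2979.7 at 6 months, and 3576, 3833 and 3563 at 24 months. It rose in all 3 steps (0.48 ± 0.10, adjusted p = 0.00143, 0.36 ± 0.10, adjusted p = 0.00738 and 0.46 ± 0.10, adjusted p = 0.00769), the second of which neuronal marker scaling ended. Gabrg1 rose from P18 to P75 (0.78 ± 0.13, adjusted p = 0.000215) and was not called from P75 to 6 months (0.25 ± 0.13, adjusted p = 0.113), a step in which it became a call without P18 replicate 2 or 3, P75 replicate 3 or 6-month replicate 2. From 6 to 24 months it rose (0.36 ± 0.13, adjusted p = 0.0618), a call lost without 6-month replicate 2 or any 24-month library (adjusted p up to 0.221). The difference between genes of the cluster was not tested.

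**Figure D5:**
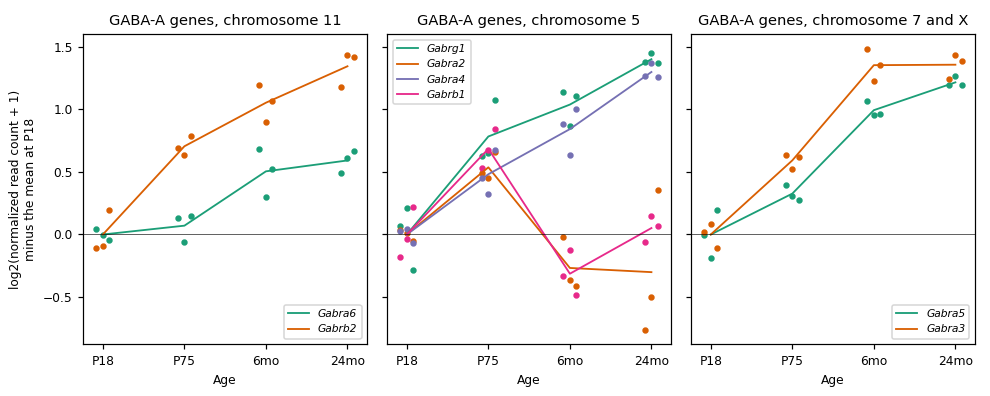
Levels of 8 GABA-A receptor genes by chromosome, as log2(normalized read count + 1) minus the mean at P18, against age. Points are libraries and lines join the means of 3 libraries. In the cluster of chromosome 5, Gabra2 and Gabrb1 were lower at 6 months than at P75 while Gabra4 was higher.

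Gabra3, an alpha subunit encoded on the X chromosome, had 910.2, 951 and 833 at P18, 1391, 1291 and 1377 at P75, 2513, 2094 and 2288 at 6 months, and 2127, 2425 and 2351 at 24 months. It rose in the first 2 steps (0.59 ± 0.09, adjusted p = 8.01e-05, then 0.76 ± 0.09, adjusted p = 4.33e-06). Gabra5, a subunit of extrasynaptic hippocampal receptors, had 899.5, 789 and 1029 at P18, 1186, 1114 and 1090.0 at P75, 1882, 1749 and 1752 at 6 months, and 2058, 2161 and 2058 at 24 months. It rose in all 3 steps (0.33 ± 0.09, adjusted p = 0.00907, 0.67 ± 0.09, adjusted p = 1.96e-05 and 0.22 ± 0.09, adjusted p = 0.0949), but the last call was lost without 9 of the 12 libraries (P18 replicate 1, P75 replicates 1 and 2, and each library of 6 and 24 months), with adjusted p up to 0.241, and with the same total, without the filter or with the replicate block. The promoter of Gabra2 is shown as that of a GABA-A gene whose level turned between P75 and 6 months. It lies at chr5:71095850-71096099 (GRCm38.p6, minus strand), with its GC box in capitals.
Gabra2: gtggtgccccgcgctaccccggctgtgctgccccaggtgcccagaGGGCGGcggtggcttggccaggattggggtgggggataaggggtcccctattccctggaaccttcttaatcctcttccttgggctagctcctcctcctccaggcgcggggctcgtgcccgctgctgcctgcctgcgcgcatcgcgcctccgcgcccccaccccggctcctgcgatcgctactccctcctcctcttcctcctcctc

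GABA-B receptors work as a pair of Gabbr1, which binds GABA, and Gabbr2, which couples to G proteins. Both subunits are needed at the cell surface, yet their transcripts differed widely, with 1382 normalized reads per kilobase for Gabbr1 and 87.3 for Gabbr2. Gabbr2, on chromosome 4, 46675190 to 47004745 (mm9, minus strand), had 165, 159 and 203 at P18, 131, 108 and 82.9 at P75, 1522, 1007 and 1056 at 6 months, and 459.7, 596 and 639 at 24 months. The 6-month libraries lay above all others, those of 24 months came next, and those of P75 were the lowest. It fell from P18 to P75 (-0.72 ± 0.18, adjusted p = 0.00458), rose 11-fold from P75 to 6 months (3.46 ± 0.18, adjusted p = 6.95e-09), the largest rise of a receptor gene in that step, and fell from 6 to 24 months (-1.07 ± 0.18, adjusted p = 0.00172). Gabbr1 had 5689.5, 6449 and 6686 at P18, 8397, 8826 and 7433 at P75, 15409, 14253 and 13518 at 6 months, and 13117, 14312 and 15167 at 24 months. It rose in the first 2 steps (0.39 ± 0.10, adjusted p = 0.00631, then 0.81 ± 0.10, adjusted p = 9.61e-06), and 6 and 24 months overlapped (-0.02 ± 0.10, adjusted p = 0.916). Per kilobase, Gabbr1 over Gabbr2 was 27.0 ± 2.99 at P18, 58.8 ± 9.84 at P75, 9.28 ± 1.54 at 6 months, then 19.1 ± 2.02 at 24 months (SD, n = 3), with no overlap between consecutive ages. In exact permutation tests each step of this ratio had p = 0.1, the smallest possible.

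The promoters of Gabbr2 and of Drd2, the dopamine receptor described further on, are given as 2 examples. Both genes are among the 26 of 73 tested that had their highest mean at 6 months. They lie at chr4:46991715-46991964 (minus strand) and chr9:49340153-49340402 (plus strand) of GRCm38.p6, from RefSeq, with GGGCGG and GGACAGC in capitals on either strand.
Gabbr2: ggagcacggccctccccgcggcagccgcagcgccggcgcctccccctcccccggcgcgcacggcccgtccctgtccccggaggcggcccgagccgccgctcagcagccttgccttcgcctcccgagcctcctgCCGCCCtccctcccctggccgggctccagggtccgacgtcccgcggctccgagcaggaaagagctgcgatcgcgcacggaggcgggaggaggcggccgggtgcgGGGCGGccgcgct
Drd2: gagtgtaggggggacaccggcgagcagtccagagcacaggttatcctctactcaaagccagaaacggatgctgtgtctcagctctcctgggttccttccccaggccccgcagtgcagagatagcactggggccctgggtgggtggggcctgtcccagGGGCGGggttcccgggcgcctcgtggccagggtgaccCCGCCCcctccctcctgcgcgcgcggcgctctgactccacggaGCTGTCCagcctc
GC content was 80.8% for Gabbr2 and 68.8% for Drd2, against a median of 58.8% over the 77 receptor promoters and 52.4% over all promoters. Each holds 2 GC boxes, and that of Drd2 also 1 match to GGACAGC. The promoter of Chrm3, which also had its highest mean at 6 months, had 61.2% GC, 0 GC boxes and 0 matches to GGACAGC. A link between these letters and the age of the highest mean was not tested.

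Glycine receptors are chloride channels of brainstem and spinal cord, with alpha subunits that bind glycine and the beta subunit Glrb. Of the 5 genes only Glrb and Glra2 were tested. Glrb lies on chromosome 3, 80647521 to 80717582 (mm9, minus strand) and had 3819, 3708 and 3765 at P18, 7315, 8319 and 9367 at P75, 8965, 7787 and 8969 at 6 months, and 11922, 12778 and 12327 at 24 months. It rose from P18 to P75 (1.14 ± 0.10, adjusted p = 6.95e-07) and from 6 to 24 months (0.53 ± 0.10, adjusted p = 0.00284), each without overlap, and its P75 and 6-month libraries overlapped (0.05 ± 0.10, adjusted p = 0.717). With neuronal marker scaling the step from P75 to 6 months became a called fall, by 0.24. Glra2, the alpha subunit of the immature nervous system, had 295, 337 and 374 at P18, 323, 381 and 451 at P75, 552, 462 and 515 at 6 months, and 595, 608 and 575 at 24 months. It rose from P75 to 6 months (0.41 ± 0.12, adjusted p = 0.00902), a call that neuronal marker scaling ended. Per kilobase, Glrb over Glra2 was 10.7 ± 1.39 at P18, 20.5 ± 0.901 at P75, 15.9 ± 0.553 at 6 months, then 19.7 ± 0.689 at 24 months (SD, n = 3). Glra1, the adult alpha subunit, had only 2.21 to 9.91 normalized reads in all 12 libraries, from 2 to 12 reads, so that Glrb was measured at a high level where its adult alpha partner was close to the limit of detection.

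Nicotinic receptors are cation channels opened by acetylcholine. Of the 12 tested, 5 rose from P18 to P75, 7 rose and 1 fell from P75 to 6 months, and 1 rose from 6 to 24 months. Chrna4 and Chrnb2 form the main high-affinity receptor of the brain and were the highest of the family per kilobase (87.2 and 112). Chrna4 had 272, 331 and 332 at P18, 292, 344 and 297 at P75, 661, 524 and 500.2 at 6 months, and 510.2, 522 and 579 at 24 months, and it rose from P75 to 6 months (0.84 ± 0.12, adjusted p = 2.83e-05). Chrnb2 rose in the same step (0.85 ± 0.13, adjusted p = 4.47e-05), between 403, 517 and 431 at P75 and 934, 757 and 749 at 6 months. Neither pair of ages overlapped. Chrna7, the subunit of the calcium-permeable homomeric receptor, had 10.7, 16.9 and 12.1 at P18, 16, 6.49 and 12.2 at P75, 64.2, 55.9 and 50.6 at 6 months, and 38.6, 32.4 and 43.5 at 24 months. From P75 to 6 months it rose (2.28 ± 0.29, adjusted p = 9.78e-06), and its fall to 24 months was not called (-0.57 ± 0.29, adjusted p = 0.176), although edgeR (adjusted p = 0.0748) and quantile normalization (0.0911) called it. Chrna1, known from the muscle endplate, went against the family and fell from P75 to 6 months (-0.77 ± 0.19, adjusted p = 0.00328), with 54.1, 57.5 and 65.2 at P75 and 27.6, 36.4 and 38.9 at 6 months. The genes of the ganglionic receptor, Chrna5, Chrna3 and Chrnb4, lie within 67.7 kilobases on chromosome 9 (mm9, 54828687 to 54896351), and all 3 rose from P18 to P75 (0.81 ± 0.25, 0.81 ± 0.17 and 1.12 ± 0.33). They rest on few reads, with means of 9.74 to 35.4 at P18. Chrna3 was also the nicotinic gene called from 6 to 24 months (0.40 ± 0.17, adjusted p = 0.0985), a call lost without any P75 or 24-month library or 6-month replicate 1 or 3 (adjusted p up to 0.254) and with the replicate block. Chrna10, a subunit of the inner ear, had the largest rise of the receptor genes from P18 to P75 (1.96 ± 0.59, adjusted p = 0.0139), but it had at most 18 reads in a library. Its mean was 4.14 at P18 and 10.6 over all libraries, so it passed the filter of 10 through its later ages. The other 4 tested genes reached at most 77.2 (Chrna6) in any library.

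Muscarinic receptors couple acetylcholine to G proteins. Of the 4 tested, 1 rose from P18 to P75, all 4 rose from P75 to 6 months under each of the 3 other scalings as well, and 1 fell from 6 to 24 months. Chrm3 is coupled to phospholipase C. It has 1 merged exon in the annotation used, on chromosome 13, 9876381 to 9878329 (mm9, minus strand), and may extend beyond it. It had 20.2, 26.0 and 42.2 at P18, 27.1, 37.1 and 29.9 at P75, 305, 222 and 221 at 6 months, and 104, 137 and 164 at 24 months. All libraries of 6 months were above those of 24 months, which were above those of P18 and P75. It rose from P75 to 6 months (2.95 ± 0.24, adjusted p = 2.04e-07) and fell from 6 to 24 months (-0.89 ± 0.24, adjusted p = 0.0189). Chrm1, the main receptor of forebrain neurons, had 847, 886 and 629 at P75 and 1995, 1900.4 and 1769 at 6 months (1.28 ± 0.16, adjusted p = 8.06e-06). Chrm4, which is known from striatal neurons, had 388, 361 and 352 and then 623, 620.5 and 633 (0.77 ± 0.11, adjusted p = 3.83e-05). The libraries of these ages did not overlap for either gene. Chrm2 had 5.01, 2.78 and 1.11 at P75 and 40.6, 16.9 and 18.5 at 6 months (2.75 ± 0.66, adjusted p = 0.00247), with at most 50 reads in a library. Its mean was 2.97 at P75, 25.3 at 6 months and 10.8 over all libraries, so it passed the filter through its later ages. The place of Chrm2 among the 4 tested genes thus rested on the levels it had after the rise. A microRNA gene, Mir490, lies in its span on the same strand.

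Serotonin receptors comprise G protein coupled types and the channel formed by Htr3a and Htr3b. Of the 12 tested, 6 rose and 1 fell from P18 to P75, 8 rose from P75 to 6 months, and 2 rose and 2 fell from 6 to 24 months. Htr2c, the highest of the family per kilobase (182) and a receptor with strong expression in choroid plexus epithelium, had 1037, 1098 and 1066 at P18, 1495, 1623 and 2027 at P75, 1731, 1295 and 1825 at 6 months, and 2458, 2514 and 2189 at 24 months. It rose from P18 to P75 (0.67 ± 0.13, adjusted p = 0.000511) and from 6 to 24 months (0.57 ± 0.13, adjusted p = 0.00646), without overlap in either step. From P75 to 6 months it was not called (-0.09 ± 0.13, adjusted p = 0.569), and neuronal marker scaling made that a fall by 0.38. The 6 choroid plexus markers had a summed level of 12650 to 14730 at P18, 23541 to 28946 at P75, 27583 to 31957 at 6 months, then 42777 to 47440 at 24 months, and 5 of them rose from P75 to 6 months, where Htr2c was not called. Ttr, the most abundant of them, rose from a mean of 13440 at P18 to 44404 at 24 months, and none of the 6 was at 0 in all libraries of an age. Their part in the result was not tested. Several small genes lie in the span of Htr2c on the same strand.

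Htr2a, the cortical receptor targeted by hallucinogens, had 4.75, 9.04 and 17.1 at P18, 8.02, 6.49 and 6.63 at P75, 66.6, 47.0 and 35.0 at 6 months, and 7.93, 18.4 and 22.2 at 24 months, and Htr1b, an inhibitory receptor of axon terminals, had 20.2, 21.5 and 23.1 at P18, 14, 6.49 and 9.95 at P75, 62.6, 32.8 and 42.8 at 6 months, and 24.8, 25.9 and 24.1 at 24 months. Both were low, and both were highest at 6 months, where no library overlapped with P75 or with 24 months. Htr2a rose from P75 to 6 months (2.61 ± 0.42, adjusted p = 8.58e-05) and fell from 6 to 24 months (-1.62 ± 0.42, adjusted p = 0.0148). Htr1b fell from P18 to P75 (-1.07 ± 0.28, adjusted p = 0.00632), rose from P75 to 6 months (2.09 ± 0.28, adjusted p = 1.83e-05) and fell from 6 to 24 months (-0.81 ± 0.28, adjusted p = 0.0541). The last call was lost without 6-month replicate 1 or any 24-month library (adjusted p up to 0.242). Htr1f and Htr5a rose in both of the first 2 steps, with 0.75 ± 0.22 and 0.62 ± 0.22 for Htr1f and 0.66 ± 0.15 and 0.66 ± 0.15 for Htr5a. Htr7, the only other gene of the family that rose from 6 to 24 months (0.29 ± 0.11, adjusted p = 0.069), lost that call when any library of 6 or 24 months was left out (adjusted p up to 0.209).

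Of the 5 dopamine receptors 3 were tested, and 1 rose from P18 to P75, all 3 rose from P75 to 6 months, and 1 fell from 6 to 24 months. Drd2, the receptor of indirect pathway striatal neurons and dopamine neurons, had 32.1, 53.1 and 33.1 at P18, 39.1, 27.8 and 24.3 at P75, 179.6, 139 and 105 at 6 months, and 91.1, 93.0 and 96.3 at 24 months. A rise was called from P75 to 6 months (2.17 ± 0.23, adjusted p = 2.1e-06) with no overlap. Its fall from 6 to 24 months (-0.56 ± 0.23, adjusted p = 0.0979) was lost without any of 6 libraries (P75 replicate 2, 6-month replicates 1 and 2 and all 24-month replicates), with adjusted p up to 0.364, and with neuronal marker scaling, the pseudocount 0.5 or without the filter. Drd1a, the receptor of direct pathway striatal neurons, had 134, 185 and 207 at P18, 193, 213 and 248.7 at P75, 604, 469 and 542 at 6 months, and 476, 483 and 622 at 24 months. It rose from P75 to 6 months (1.30 ± 0.16, adjusted p = 6.74e-06) and was not called from P18 to P75 (0.33 ± 0.16, adjusted p = 0.106), where scaling to the same total (adjusted p = 0.0471), leaving out P18 replicate 3, P75 replicate 1 or 24-month replicate 3, or the replicate block made it a call. Striatal neuron markers had median sums of 13813, 17688, 21404 and 25353 at the 4 ages. Their part in the result was not tested. Drd5 rose in the first 2 steps (0.91 ± 0.25, adjusted p = 0.00733, then 0.56 ± 0.25, adjusted p = 0.0664), and the second call was lost without P75 replicate 1 or 3 or 6-month replicate 1 or 3 (adjusted p up to 0.195).

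Genes of proteins that hold receptors at synapses and of transmitter supply were tested as 4 lists in the same fits. Of 28 partners of glutamate receptors that were tested (of 29), 5 rose and 16 fell from P18 to P75, 20 rose and 1 fell from P75 to 6 months, and 1 rose and 12 fell from 6 to 24 months, with median log2 changes of -0.31, 0.44 and -0.24. For these partners, scaling to the same total gave 6 rising and 11 falling in the first step, and scaling to the neuronal markers 8 and 10. Of the receptors of all transmitters 44 of 73 rose and 4 fell in the first step. Of the glutamate receptor genes, 4 of 4 AMPA, 4 of 5 kainate and 1 of 2 delta genes rose and 0 fell. Of the metabotropic genes 6 of 7 rose and 1 fell, and of the NMDA genes 2 of 7 rose and 1 fell. Dlg4, the postsynaptic scaffold PSD-95, fell from P18 to P75 (-0.80, adjusted p = 4.62e-05). The scaffold Shank1 fell in that step (-1.21, adjusted p = 0.000164) and rose in the next (2.61, adjusted p = 9.7e-08). Cacng8, an auxiliary subunit of AMPA receptors, did likewise, with -0.87 and then 2.66. Nptx1, a secreted protein that gathers AMPA receptors, rose from P18 to P75 (0.89, adjusted p = 4.14e-05).

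Among the 10 partners of inhibitory receptors, 1 rose and 2 fell, then 6 rose and 1 fell, then 0 rose and 4 fell in the 3 steps. Gphn, which encodes the gephyrin scaffold that binds Glrb, was not called in the first 2 steps (0.05 and 0.08) while Glrb rose in the first. Kctd8, an auxiliary subunit of GABA-B receptors, fell from P75 to 6 months (-0.87, adjusted p = 2.07e-05), the step in which Gabbr2 rose. It was the 1 gene of this list called falling in that step, so Kctd12 and Kctd16, also on the list, were not. Of the 6 partners of acetylcholine receptors, 3 rose and 1 fell, then 4 rose and 2 fell, then 1 rose and 1 fell. Ric3, a chaperone of nicotinic receptors, rose in the first 2 steps (0.70 and 0.59), as did Tmem35, another nicotinic chaperone (0.58 and 1.16). Of 23 tested genes of transmitter synthesis and transport (of 24), 8 rose and 2 fell, then 16 rose and 2 fell, then 3 rose and 2 fell. Slc32a1, which loads GABA and glycine into vesicles, rose in the first 2 steps (0.80 and 0.89), and Slc17a7, the vesicular glutamate transporter of cortex and cerebellum, rose from P75 to 6 months (1.41, adjusted p = 3.5e-06). Over the 4 lists together 38, 52 and 24 of 67 genes were called in the 3 steps, beside 48.8%, 60.6% and 29.3% of all genes tested. The last count was 14 without 6-month replicate 1 and 14 without 24-month replicate 1. With neuronal marker scaling the lists together gave 29 rising and 12 falling, 26 and 14, and 10 and 10 in the 3 steps, against 17 and 21, 46 and 6, and 5 and 19 otherwise, and with the same total 25 rose and 14 fell in the first step.

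The 16 receptor genes under the mean of 10 were Chrm5, Chrna9, Drd3, Drd4, Gabre, Gabrg3, Gabrp, Gabrq, Gabrr1, Gabrr3, Glra1, Glra3, Glra4, Grm6, Htr2b and Htr3b. None was at 0 in all 12 libraries, and the highest single value was 29 reads, for Glra3 in 6-month replicate 1. Glra3, an alpha subunit of glycine receptors, had 0, 1.13 and 1.0 at P18, 1.0, 0 and 2.21 at P75, 23.6, 5.33 and 9.73 at 6 months, and 3.96, 6.49 and 9.26 at 24 months. Gabrg3 had 2.0, 2.78 and 2.21 at P75 and 21.1, 8.88 and 15.6 at 6 months. Gabrq, the theta subunit of GABA-A receptors from hypothalamus and brainstem, had 3.01, 1.85 and 0 at P75, 13.0, 7.99 and 15.6 at 6 months and 0.99, 1.08 and 4.63 at 24 months. In these 3 genes, and also in Chrm5, Gabre and Glra1, the 6-month libraries lay above those of P18 and P75. All rest on few reads and were outside the main fit. They entered only the fit without the filter, which is not given by gene here. The share of all genes with such a gap is not given either. Grm6, the receptor of retinal bipolar cells, had 4 reads over all 12 libraries together, and Gabrp, Gabrr3, Chrna9 and Htr3b had 5 to 7. At this depth their absence from the fraction could not be told from a very low level.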

How the data were processed

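The authors mapped reads of myelin RNA with TopHat (mm9), took gene counts from HTSeq and scaled each library by its DESeq size factor, per the labels and the methods of the study. The deposited values are this signal, normalized read counts per gene, and the options for strand are not given in the sources used here. Whole reads were recovered from the steps between low values, within 0.1 read, and served for depth and for the count tests. The genes and lists were chosen with earlier results of these data known.

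Values were taken as log2(value + 1), and fold changes on this scale understate the change of low genes. Genes with a mean of at least 10 (14634) entered 1 limma 3.58.1 fit over all 12 libraries in R 4.3.3, with age as the only term, a mean-variance trend and Benjamini-Hochberg adjusted p under 0.1. Alternatives were edgeR 4.0.16 and DESeq2 1.42.0 on the recovered reads, other pseudocounts, filters and scalings, 2 ages alone, a replicate block and each library left out. The fits were tested on simulated data. Single sums and ratios had exact two-sided permutation tests. Values in every library are given for the 5 largest called rises and falls of each step among genes with a mean of 100 at either age, the 5 genes highest per kilobase, and subunits known to be exchanged in development. Some of these genes are not reported here, although counts include them. Other genes named were chosen after their values were seen. Replicate numbers of P75 and 6 months deviated together (correlations of 0.101 to 0.187, each library best with its own number in 6 of 6 cases), with no pairing in the labels. The values printed for this step come from the fit without the block, and a blocked value is given where it changed a call.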

Additional observations from a re-analysis of the deposited data

How the results depend on the processing

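The receptor counts kept their majority of rises in the first 2 steps under every setting run. Leaving out 1 library gave 44 to 54 calls from P18 to P75, 48 to 59 from P75 to 6 months and 14 to 31 from 6 to 24 months. The last step held 17 calls with scaling to the same total and 17 at a false discovery rate of 0.05. The partner and supply lists, an alternative added after seeing the data, held 14 to 28 calls from 6 to 24 months when 1 library was left out. With scaling to the neuronal markers Glrb turned to -0.24 from P75 to 6 months. Over the named genes and settings 1979 of 2070 comparisons kept their side of the threshold, 56 lost the call, 34 gained it and 1 reversed. A reversal was counted only where the gene was called in either fit, so uncalled changes of direction are among the 1979. The replicate block gave 49, 57 and 25 calls in the 3 steps. From P18 to P75 and from 6 to 24 months same-numbered libraries did not deviate together (-0.151 to -0.0264 and -0.213 to -0.0603, 0 of 6 best with their own number in each), and there the block added Drd1a and lost Chrna3 and Gabra5. The cause of these changes was not tested. With 3 libraries an age, no exact test can pass 0.05, and genes with few reads were measured with wide counting error.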
